A study of Mus musculus with 6 samples.

Results

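Border-associated macrophages are the resident macrophages of the perivascular spaces, the meninges and the choroid plexus, and 7 genes widely used to mark them (Mrc1, Cd163, Lyve1, Pf4, F13a1, Folr2 and Cbr2) were followed here in cultured mouse microglia. The genes were selected by symbol, and all 7 were present among the 41079 genes of the deposited tables. The question was at what level microglia in culture carried these transcripts, and how the levels differed between the optimized and the control conditions of the study, which sought culture conditions that keep microglia close to their state in the brain.

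RNA-seq libraries were made from 3 control cultures and 3 cultures under the optimized conditions. All 6 came from the brains of C57Bl/6N pups aged 1 to 3 days, with mixed cells expanded in flasks, fed with 20% L-929 conditioned medium and shaken to release the microglia. Control microglia were then held in serum-free DMEM/F12. Optimized microglia received human TGFbeta, human IL34 and CX3CL1, each at 100 ng/mL, and the study's methods add cholesterol, insulin-transferrin-selenium and a collagen IV coating, which the sample labels do not list. The cells of a flask came from more than 1 brain, were not sorted, and had been cultured in serum for weeks, so the libraries describe neonatal microglia in culture. No freshly isolated cells and no sorted border-associated macrophages were part of the series.

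Microglia and border-associated macrophages both depend on signalling through Csf1r, and both arise largely from yolk sac progenitors. They are told apart in tissue by their position and by their transcripts: border-associated macrophages carry scavenger and endocytic receptors such as the mannose receptor Mrc1, the haemoglobin receptor Cd163 and the hyaluronan receptor Lyve1, while microglia carry genes such as Tmem119, P2ry12 and Sall1. TGF-β signalling is required for the homeostatic transcriptome of microglia, and in its absence microglia are known to take up some transcripts of border-associated macrophages.

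The libraries held between 20628148 and 27261839 counts. CPM in this report is the count scaled to library size with TMM factors. For the next comparison alone it was scaled to library size without them. Optimized library 1 stood apart: 172 genes were more than 5-fold above every other library there, with 0.1 added to this CPM. The same held for 1 to 5 genes in each of the other libraries. Ltf, a secreted protein of glandular epithelium and neutrophils, had 1534 counts in optimized library 1 and at most 3 elsewhere. A list of 12 epithelial genes, chosen after these values were seen, summed to 28.6 CPM in it and to between 0.204 and 1.31 CPM in the others, and a list of 8 smooth muscle genes summed to 40.3 CPM against 12.5 to 19.0 CPM. Results for the 7 markers that rest on this library are given with and without it.

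The labelled cell type was checked with 13 microglia markers, of which 12 were in the table. All 11 that were tested were higher under the optimized conditions, against 14.7% of all tested genes. The 12 summed to 3166 to 3438 CPM in control and 9576 to 12210 CPM in optimized libraries. Csf1r, the growth factor receptor of all these macrophages, averaged 2387 ± 67.2 CPM in control and 1817 ± 66.9 CPM in optimized libraries (SD, n = 3 each). Microglia genes were thus abundant in both groups. The border-associated macrophage markers differed among themselves: Cd163 and Lyve1 were nearly absent, with at most 11 counts in any library. Mrc1, Pf4 and Folr2 were well detected, with means of 330, 157 and 31.3 CPM in control libraries. In optimized libraries their means were 62.7, 227 and 31.2 CPM. The 7 genes are treated as transcripts measured in a culture labelled as microglia, and no cell in it is called a border-associated macrophage. In RNA from whole cultures, fewer cells of a type and less RNA per cell cannot be told apart.

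The 7 genes lay at 7 protein-coding loci of GRCm39 (GENCODE M39). Mrc1 was at chr2:14234151-14336926 on the plus strand, Cd163 at chr6:124281606-124307560 on the plus strand, and Pf4 at chr5:90918479-90922110 on the plus strand. Lyve1 was at chr7:110448585-110462460, Folr2 at chr7:101489195-101506401, F13a1 at chr13:37051152-37234277 and Cbr2 at chr11:120620312-120622940, all on the minus strand. Exons of F13a1 overlapped exons of the predicted gene Gm30489 on the other strand, and those of Folr2 overlapped Gm10602 in the same way. Whether the counting used strand is not given in the sources used here, so reads of these pairs cannot be told apart.

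The stretches upstream of Mrc1 and F13a1 are shown because these had the largest fall and the largest rise among the members with enough counts to be tested. They are RefSeq promoter windows (table build GRCm38.p6) that matched GRCm39 once, at chr2:14233975-14234150 on the plus strand and chr13:37234278-37234470 on the minus strand, without bases of annotated exons. Capitals mark the letters GAGGAA, a core sequence bound by the macrophage factor PU.1, searched on both strands and therefore also written as TTCCTC.
Mrc1: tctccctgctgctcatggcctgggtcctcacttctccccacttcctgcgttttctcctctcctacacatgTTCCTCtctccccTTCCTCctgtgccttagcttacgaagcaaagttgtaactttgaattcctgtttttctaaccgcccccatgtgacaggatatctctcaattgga
F13a1: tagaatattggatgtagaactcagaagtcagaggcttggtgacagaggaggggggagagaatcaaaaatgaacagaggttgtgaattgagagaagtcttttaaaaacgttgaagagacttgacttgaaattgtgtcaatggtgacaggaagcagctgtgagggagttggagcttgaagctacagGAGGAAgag

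The full Mrc1 window held GAGGAA at 180, 167 and 35 bases before the RefSeq start, the last of these beyond the annotated gene start, where the printed stretch ends, and the F13a1 window at 66 bases before it. Windows were given for 6 of the 7 members, 8 windows in all, and 4 of the 8 held GAGGAA, against 23.3% of all 32851 windows. The SMAD box GTCTG was in 2 of the 8, against 42.2% of all windows. The MAF core TGCTGA was in 2 of the 8, both of Folr2, against 16.1%, and the AP-1 letters TGANTCA were in 1, also of Folr2, against 6.75%. None of the searched motifs overlapped another in the printed stretches. These are matches of letters, without a measurement of binding.

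Levels of different genes were compared as deposited FPKM (FPKM divides fragments by the length of the gene and by the size of the library). In control microglia Pf4 stood first at 306 ± 29.8 FPKM (SD, n = 3), followed by Mrc1 at 63.1 ± 6.30 FPKM and Folr2 at 23.8 ± 1.96 FPKM. F13a1 at 1.28 ± 0.19 FPKM and Cbr2 at 0.89 ± 0.33 FPKM overlapped, as did Cd163 at 0.056 ± 0.014 FPKM and Lyve1 at 0.035 ± 0.033 FPKM. The set thus spanned abundant transcripts and transcripts close to the limit of detection. By mean FPKM over the control libraries Pf4 ranked 173 among the 41079 genes, Mrc1 912 and Folr2 2454, while F13a1 ranked 11035, Cbr2 11769, Cd163 16835 and Lyve1 17703.

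Under the optimized conditions the order changed at one place near the top and at the bottom. Pf4 remained first at 400 ± 87.8 FPKM, rank 113, but Folr2 at 21.6 ± 2.89 FPKM, rank 2356, now stood above Mrc1 at 10.9 ± 1.37 FPKM, rank 4276. F13a1 reached 3.53 ± 0.23 FPKM, rank 8158, and no longer overlapped Cbr2 at 1.17 ± 1.01 FPKM. Lyve1 at 0.10 ± 0.078 FPKM stood above Cd163 at 0.0033 ± 0.0058 FPKM, and no neighbours in this order overlapped. Without optimized library 1, which was the highest for both genes, the means of Cbr2 and Lyve1 were 0.59 and 0.055 FPKM, and the order was the same.

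**Figure D1:**
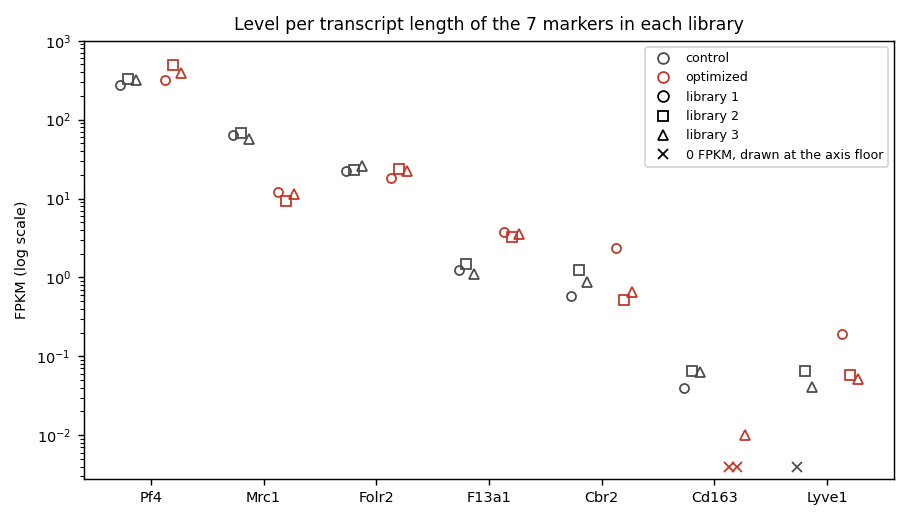
FPKM of the 7 markers in each library on a log axis, control against optimized, with each point a library and values of 0 drawn as crosses at the floor of the axis. Pf4 is highest in both groups, Mrc1 drops below Folr2 under the optimized conditions, and Cd163 and Lyve1 lie at the bottom.

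Of the 7 markers, 5 had enough counts for the test between conditions (edgeR's quasi-likelihood test, Benjamini-Hochberg adjustment over 14618 genes). Among these, F13a1 and Pf4 were higher and Mrc1 was lower under the optimized conditions, Folr2 and Cbr2 did not pass, and Cd163 and Lyve1 were too low to be tested. The 3 of 5 called compare with 29.8% of all tested genes, 14.7% higher and 15.2% lower, and the groups did not overlap for 3 of the 5, against 43.9% of all tested genes. The median log2 fold change of the 5, 0.49 against 0.0079 for all tested genes, was that of Cbr2, and without optimized library 1 the median was 0.12. The markers did not move in 1 direction.

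**Figure D2:**
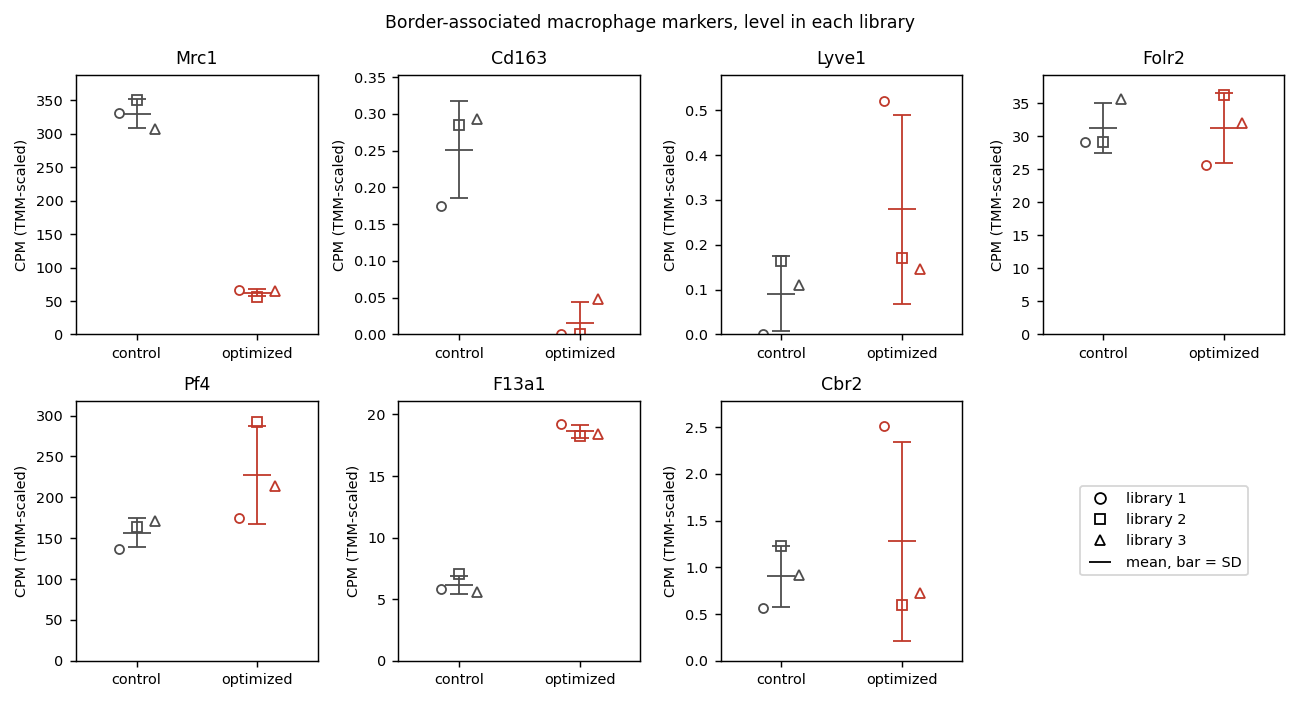
CPM of the 7 markers in each library, one panel per gene with its own axis from 0, with points for libraries and bars for the mean and SD. Mrc1 separates downward and F13a1 upward without overlap, Pf4 separates upward by a small margin, Folr2 and Cbr2 overlap, and Cd163 and Lyve1 stay below 0.53 CPM.

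Mrc1 encodes the mannose receptor (CD206), an endocytic receptor for mannosylated glycoproteins and collagen fragments that is used to stain perivascular and meningeal macrophages. It measured 331.7, 350.8 and 307.3 CPM in control libraries 1 to 3, and 67.0, 56.7 and 64.4 CPM in optimized libraries 1 to 3. The lowest control library was far above the highest optimized library, so the groups did not overlap. The means were 330 ± 21.8 and 62.7 ± 5.37 CPM (SD, n = 3 each), a 5.26-fold lower level (log2 fold change -2.40, SE 0.099, adjusted p = 1.739e-07 by edgeR's quasi-likelihood test). The raw counts were 7586, 8601 and 8395 against 1415, 1331 and 1331, so the transcript remained well detected under the optimized conditions.

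The paralogue Mrc2 (Endo180), a collagen receptor of the same family found mainly on mesenchymal cells, moved in the opposite direction. It measured 1.88, 1.10 and 1.28 CPM in control and 27.1, 24.1 and 26.3 CPM in optimized libraries. All optimized libraries were above all control libraries, with a log2 fold change of 4.19 (SE 0.18, adjusted p = 1.812e-07). Mrc2 even so stayed below Mrc1 per length, at 4.10 ± 0.41 FPKM against 10.9 ± 1.37 FPKM in optimized libraries. Pla2r1, the phospholipase A2 receptor of the same family, fell from 2.85 ± 0.33 to 0.59 ± 0.14 CPM. Of the 3 family members tested beside Mrc1, 1 was thus higher, 1 lower and 1 not called, 66.7% called against 29.8% of all tested genes. Markers of fibroblasts, a mesenchymal cell type that carries Mrc2, summed to 35.3 to 49.5 CPM in control libraries and to 50.1, 31.3 and 153 CPM in optimized libraries 1 to 3. None of the 7 tested was called, against 29.8% of all tested genes. The part of fibroblasts in the Mrc2 values was not tested.

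Cd163 encodes the scavenger receptor that takes up haemoglobin bound to haptoglobin. Control libraries 1 to 3 gave 4, 7 and 8 counts and optimized libraries 1 to 3 gave 0, 0 and 1, where a single count is worth 0.0366 to 0.0484 CPM. The control libraries were all above the optimized ones, but at a level where counting error is large. Summed over libraries, the 19 control counts against 1 optimized count gave a ratio of 16.6 with an exact 95% interval of 2.64 to 690, which covers counting error only. Without the filter on low counts edgeR's quasi-likelihood test gave an adjusted p = 0.056 and DESeq2 an adjusted p = 0.067, while limma on log2(FPKM + 1) gave an adjusted p = 0.025 for a difference of -0.07, so whether Cd163 passed depended on the tool. At these levels Cd163 is a trace in either condition.

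Of the partners of Cd163 in haemoglobin and haem handling, 7 of the 9 tested passed (77.8% against 29.8% of all tested genes), 1 higher and 6 lower (median log2 fold change -0.74). Hp, haptoglobin itself, fell from 21.8 ± 2.84 to 11.7 ± 1.15 CPM (log2 fold change -0.90). Blvrb, a biliverdin reductase, fell from 151 ± 24.6 to 60.7 ± 13.6 CPM. Hmox1, the haem oxygenase that opens the haem ring, was at 1070 ± 109 and 1010 ± 141 CPM and did not pass (log2 fold change -0.08, 95% interval -0.37 to 0.20). Lrp1, the receptor for haem bound to haemopexin, was the member that rose, at 1319 ± 249 and 2103 ± 667 CPM with overlapping groups (log2 fold change 0.67, adjusted p = 0.039 by edgeR's quasi-likelihood test), and this call was lost when control library 2, control library 3 or optimized library 3 was left out, with adjusted p-values of 0.15, 0.137 and 0.053. It was also lost with library size alone (adjusted p = 0.124) and in the 3 limma fits on FPKM (0.161 to 0.327). Without optimized library 1 the log2 fold change of Lrp1 was 0.39 (adjusted p = 0.031 by edgeR's quasi-likelihood test).

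Lyve1 encodes a hyaluronan receptor of lymphatic endothelium and of a subset of perivascular and meningeal macrophages. Control libraries 1 to 3 gave 0, 4 and 3 counts, and optimized libraries 1 to 3 gave 11, 4 and 3. The groups overlapped, and the high value was that of optimized library 1, the library that carried the epithelial and smooth muscle genes. The mean difference was 0.188 CPM with this library and 0.0665 CPM without it. Without the filter on low counts the log2 fold change of 1.52 had an adjusted p = 0.39 (edgeR's quasi-likelihood test). The 5 lymphatic endothelial markers summed to 9.66 to 12.1 CPM in control and 24.0, 20.0 and 19.6 CPM in optimized libraries 1 to 3. Of the 3 tested, 2 were higher (66.7% against 14.7% of all tested genes), and Ccl21a was at 0 in every library. The part of lymphatic endothelium in the Lyve1 counts was not tested.

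Of the other hyaluronan genes, 5 of the 9 tested passed (55.6% against 29.8% of all tested genes), 1 higher and 4 lower (median log2 fold change -0.48). Cd44, the common hyaluronan receptor of leukocytes, fell from 215 ± 10.2 to 149 ± 8.44 CPM (log2 fold change -0.54). Stab2, an endocytic hyaluronan receptor of sinusoidal endothelium, fell from 5.03 ± 0.44 to 0.59 ± 0.15 CPM (log2 fold change -3.07). Has2, a hyaluronan synthase, was the member that rose, from 0.26 ± 0.093 to 1.07 ± 0.35 CPM. Per length, Lyve1 in control microglia, at 0.035 FPKM, was below Cd44 at 38.2 FPKM and Stab2 at 0.50 FPKM, while in optimized microglia Stab2 stood at 0.053 FPKM and Lyve1 at 0.10 FPKM. Without optimized library 1 these means were 0.051 and 0.055 FPKM, so Lyve1 did not stand apart from Stab2 there.

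Pf4 encodes platelet factor 4 (CXCL4), a chemokine of platelet granules that is also a strong transcript of border-associated macrophages. It measured 136.6, 163.4 and 170.8 CPM in control libraries 1 to 3, and 174.7, 292.3 and 214.4 CPM in optimized libraries 1 to 3. The groups did not overlap, but optimized library 1 was only just above control library 3. The means were 157 ± 18.0 and 227 ± 59.8 CPM (SD, n = 3 each), 1.45-fold higher (log2 fold change 0.53, SE 0.17, 95% interval 0.15 to 0.92, adjusted p = 0.041 by edgeR's quasi-likelihood test). The call was not stable: the adjusted p was 0.157, 0.112 and 0.064 without control library 1, 2 or 3, and 0.095 and 0.071 without optimized library 2 or 3, although it was 0.00035 without optimized library 1. It was 0.064 with library size as the only scaling and 0.12 to 0.26 with limma on FPKM. The call held with DESeq2 (adjusted p = 0.011). With edgeR's quasi-likelihood test it also held under relative log expression scaling (0.038) and with a replicate block (0.0048). It held there too without the filter on low counts (0.0093) and with at least 10 counts in every library (0.037). The direction was upward throughout but the size of the rise was poorly fixed.

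Platelet and megakaryocyte markers were near the limit of detection, with 8 markers summing to 2.06 to 3.10 CPM in control and 2.27 to 2.47 CPM in optimized libraries, Gp5 at 0 throughout and 0 of 2 tested called. Among the relatives and partners of Pf4, 1 was higher and 3 were lower of the 5 tested, 80% called against 29.8% of all tested genes (median log2 fold change -0.50). Srgn, the proteoglycan serglycin that stores Pf4 in granules, measured 115 ± 15.2 and 173 ± 33.1 CPM (log2 fold change 0.60, adjusted p = 0.013 by edgeR's quasi-likelihood test), a call lost without control library 1, control library 2 or optimized library 3 at adjusted p-values of 0.065, 0.058 and 0.054 and in limma fits of log2(FPKM + 1) and log2(FPKM + 0.1) at 0.107 and 0.093. Sdc4, a heparan sulphate proteoglycan, fell from 127 ± 5.25 to 47.1 ± 1.46 CPM. Cxcr3, a chemokine receptor that binds CXCL4, was at 1.42 ± 0.22 and 1.21 ± 0.45 CPM and did not pass.

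F13a1 encodes the A subunit of coagulation factor XIII, a transglutaminase that cross-links fibrin and matrix proteins and is made by tissue macrophages and platelets. It measured 5.82, 7.01 and 5.60 CPM in the control libraries and 19.2, 18.3 and 18.4 CPM in the optimized libraries. The highest control library was well below the lowest optimized library, and the optimized libraries lay close together. The means were 6.14 ± 0.76 and 18.6 ± 0.51 CPM (SD, n = 3 each), 3.03-fold higher (log2 fold change 1.60, SE 0.12, 95% interval 1.32 to 1.88, adjusted p = 7.586e-06 by edgeR's quasi-likelihood test). The counts were 133, 172 and 153 against 406, 429 and 381, and the call held under every alternative tried.

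Of the 6 relatives of F13a1 in coagulation and cross-linking that were tested, 3 were higher and 2 lower, 83.3% called against 29.8% of all tested genes (median log2 fold change 0.06). F3, tissue factor, measured 8.28 ± 1.29 and 13.5 ± 0.96 CPM, and Procr, the endothelial protein C receptor, 12.9 ± 1.92 and 25.8 ± 6.87 CPM, and both were higher. Both calls were narrowly lost with limma on log2(FPKM + 1), at adjusted p-values of 0.0513 for F3 and 0.0512 for Procr. Tgm2, the tissue transglutaminase related to F13a1, was at 27.9 ± 0.98 and 23.8 ± 3.31 CPM and did not pass (log2 fold change -0.23, 95% interval -0.49 to 0.02). F13b, the carrier subunit of plasma factor XIII, was at 0 in every library. Of the markers of blood endothelium, a cell type that carries Procr, 3 of 6 tested were higher, 50% against 14.7% of all tested genes. The list summed to 92.3 to 112 CPM in control and 318 to 401 CPM in optimized libraries. Flt1, a receptor for vascular endothelial growth factor, carried most of this sum at 83.0 ± 8.55 CPM in control and 298 ± 42.2 CPM in optimized libraries, and the part of endothelial cells in these results was not tested.

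Folr2 encodes folate receptor beta, a folate-binding protein of tissue macrophages. It measured 29.1, 29.1 and 35.6 CPM in the control libraries and 25.6, 36.1 and 31.9 CPM in the optimized libraries. The groups overlapped almost completely, with means of 31.3 ± 3.79 and 31.2 ± 5.32 CPM (SD, n = 3 each). The log2 fold change was -0.0033 with a 95% interval of -0.32 to 0.31, and the adjusted p was 0.99 (edgeR's quasi-likelihood test). Folr2 had 540 to 974 counts per library.

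Of the other genes of folate uptake and use, 8 of the 13 tested passed, 61.5% against 29.8% of all tested genes. Of these, 2 were higher, 15.4% of the 13 against 14.7% of all tested genes, and 6 were lower, 46.2% against 15.2% (median log2 fold change -0.32). Slc46a1, the proton-coupled folate transporter, rose from 22.6 ± 1.03 to 85.7 ± 11.2 CPM (log2 fold change 1.93, adjusted p = 1.287e-06). Folr1, the folate receptor of epithelium and choroid plexus, was low, at 0.32 ± 0.029 and 0.94 ± 0.19 CPM, and passed at an adjusted p of 0.011, or 0.059 without control library 3 (edgeR's quasi-likelihood test). Mthfd2, a mitochondrial enzyme that uses folate, fell from 41.3 ± 4.93 to 19.6 ± 2.45 CPM.

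**Figure D3:**
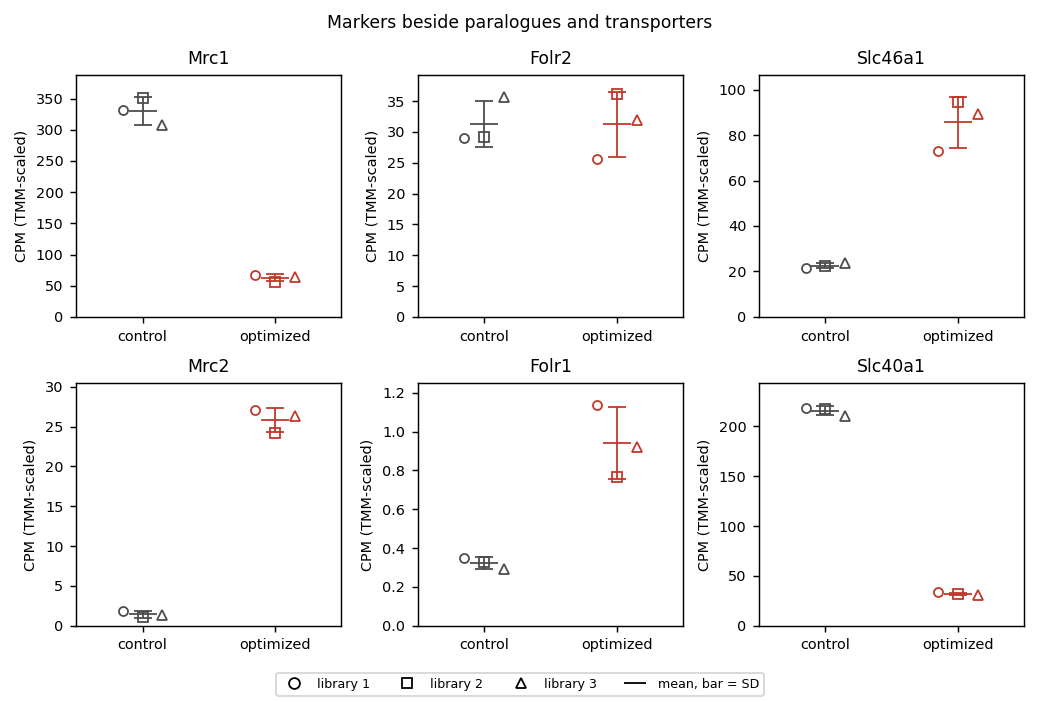
CPM in each library of 2 markers with their paralogues (Mrc1 and Mrc2, Folr2 and Folr1) and of the folate transporter Slc46a1 and the iron exporter Slc40a1, with points for libraries and bars for the mean and SD on axes from 0. Mrc1 falls while Mrc2 rises, Folr2 overlaps between groups while Folr1 and Slc46a1 rise, and Slc40a1 falls.

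Cbr2 encodes a carbonyl reductase used to mark meningeal and other tissue macrophages, and it is also known from lung epithelium. Control libraries 1 to 3 gave 13, 30 and 25 counts, and optimized libraries 1 to 3 gave 53, 14 and 15. Optimized library 1 was again the highest, at 2.51 CPM, while optimized libraries 2 and 3, at 0.60 and 0.73 CPM, lay within the control range of 0.57 to 1.22 CPM. The log2 fold change was 0.49 (SE 0.55, 95% interval -0.75 to 1.72, adjusted p = 0.57 by edgeR's quasi-likelihood test), and without optimized library 1 it was -0.46 (adjusted p = 0.48). The sign of the difference thus rested on the library that carried the epithelial genes, whose part in the result was not tested. Of the 7 other carbonyl reductase genes tested, 0 were higher and 2 lower, 28.6% called against 29.8% of all tested genes (median log2 fold change -0.20). Cbr1, the main cytosolic enzyme, was at 30.7 ± 3.80 and 31.1 ± 6.36 CPM and did not pass, while Akr1b8, an aldo-keto reductase, fell from 11.7 ± 2.66 to 2.76 ± 0.46 CPM.

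**Figure D4:**
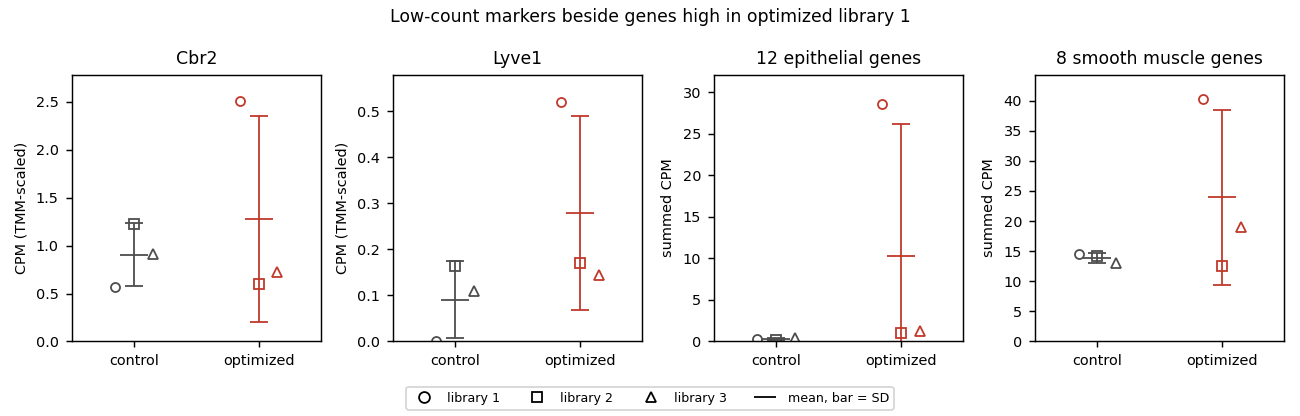
CPM of Cbr2 and Lyve1 and the summed CPM of 12 epithelial and 8 smooth muscle genes in each of the 6 libraries, with axes from 0. Optimized library 1 is the highest in all 4 panels, and the other 5 libraries lie below it.

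A ratio of counts within a library does not depend on how libraries are scaled. Per 100 counts of Csf1r, Mrc1 was at 13.8 ± 0.85 in control and 3.46 ± 0.41 in optimized libraries, 4.0-fold lower. F13a1 was at 0.258 ± 0.033 and 1.03 ± 0.067, 3.99-fold higher. Pf4 was at 6.59 ± 0.93 and 12.4 ± 2.90, and Folr2 at 1.31 ± 0.19 and 1.71 ± 0.23. The first 3 of these did not overlap between groups, which in an exact two-sided permutation test gives p = 0.1, the smallest value that 3 against 3 libraries allow, and Folr2 overlapped (exact permutation p = 0.2). Csf1r itself was lower under the optimized conditions (log2 fold change -0.39, adjusted p = 0.011 by edgeR's quasi-likelihood test), which raises the optimized ratios. That call was lost without control library 1 (adjusted p = 0.052 by edgeR's quasi-likelihood test).

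Mrc1 also changed its place relative to Pf4: per 100 FPKM of Pf4 it was at 23.7, 21.0 and 17.6 FPKM in control libraries and at 3.75, 1.90 and 2.94 FPKM in optimized libraries. The lowest control ratio was well above the highest optimized ratio, so the groups did not overlap.

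A further 40 genes known from border-associated macrophages, other than the 7, were counted in the same way. Of these, 33 were tested, and 22 were lower, 5 were higher and 6 did not pass, with a median log2 fold change of -1.0. The 66.7% lower and 15.2% higher of the tested genes compare with 15.2% and 14.7% of all tested genes. The summed level of the 40 genes was 10470 to 10670 CPM in control and 8138 to 8606 CPM in optimized libraries. A fall was thus the more frequent outcome in the wider list, whereas among the 5 tested markers only Mrc1 fell. Both sets were chosen with earlier results of these data known, so these shares describe the listed genes only.

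The largest falls of the list were those of Marco, Timd4 and Clec10a. Marco, a scavenger receptor for bacteria and particles, fell from 33.3 ± 5.10 to 2.47 ± 1.27 CPM (log2 fold change -3.74). Timd4, a phosphatidylserine receptor of long-lived tissue macrophages, fell from 3.55 ± 0.46 to 0.28 ± 0.033 CPM, and Clec10a, a galactose-binding lectin, from 1.02 ± 0.42 to 0.079 ± 0.098 CPM. Clec10a had 4, 0 and 1 counts in optimized libraries 1 to 3, and its log2 fold change of -3.63 was -5.19 without optimized library 1. Per length these receptors stood below Mrc1 in control microglia, Marco at 17.5 FPKM, Timd4 at 1.58 FPKM and Clec10a at 0.70 FPKM. The genes with the largest rises were Tgfbi, a matrix protein induced by TGF-β, from 43.3 ± 1.02 to 366 ± 56.8 CPM, Colec12, a collectin scavenger receptor, from 416 ± 4.23 to 839 ± 36.1 CPM, and Siglec1, a sialic acid receptor, from 328 ± 28.8 to 492 ± 113 CPM. The Siglec1 call was lost without control library 2, control library 3 or optimized library 3, at adjusted p-values of 0.094, 0.064 and 0.060 by edgeR's quasi-likelihood test, with library size alone (0.092) and in the 3 limma fits on FPKM (0.129 to 0.272).

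The genes of the list with the highest mean CPM had smaller fold changes. Stab1, an endocytic receptor of tissue macrophages, was at 2219 ± 275 and 2251 ± 240 CPM and did not pass (log2 fold change 0.02, negative under library size scaling, without the filter on low counts and in the FPKM fits). Igf1 was at 1192 ± 21.9 and 946 ± 53.6 CPM and Gas6, a bridging ligand for apoptotic cells, at 988 ± 43.1 and 615 ± 57.3 CPM, and both were lower. The Igf1 call was lost without any 1 of the 3 control libraries or optimized library 3, at adjusted p-values of 0.057 to 0.103 by edgeR's quasi-likelihood test.

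Slc40a1 and Maf are named here after their values were seen. Slc40a1 (ferroportin), the iron exporter, fell from 216 ± 4.35 to 32.0 ± 1.14 CPM (log2 fold change -2.75), a drop of the same order as that of Mrc1. Maf, a transcription factor of tissue macrophages, fell from 280 ± 21.6 to 72.4 ± 4.22 CPM (log2 fold change -1.95).

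**Figure D5:**
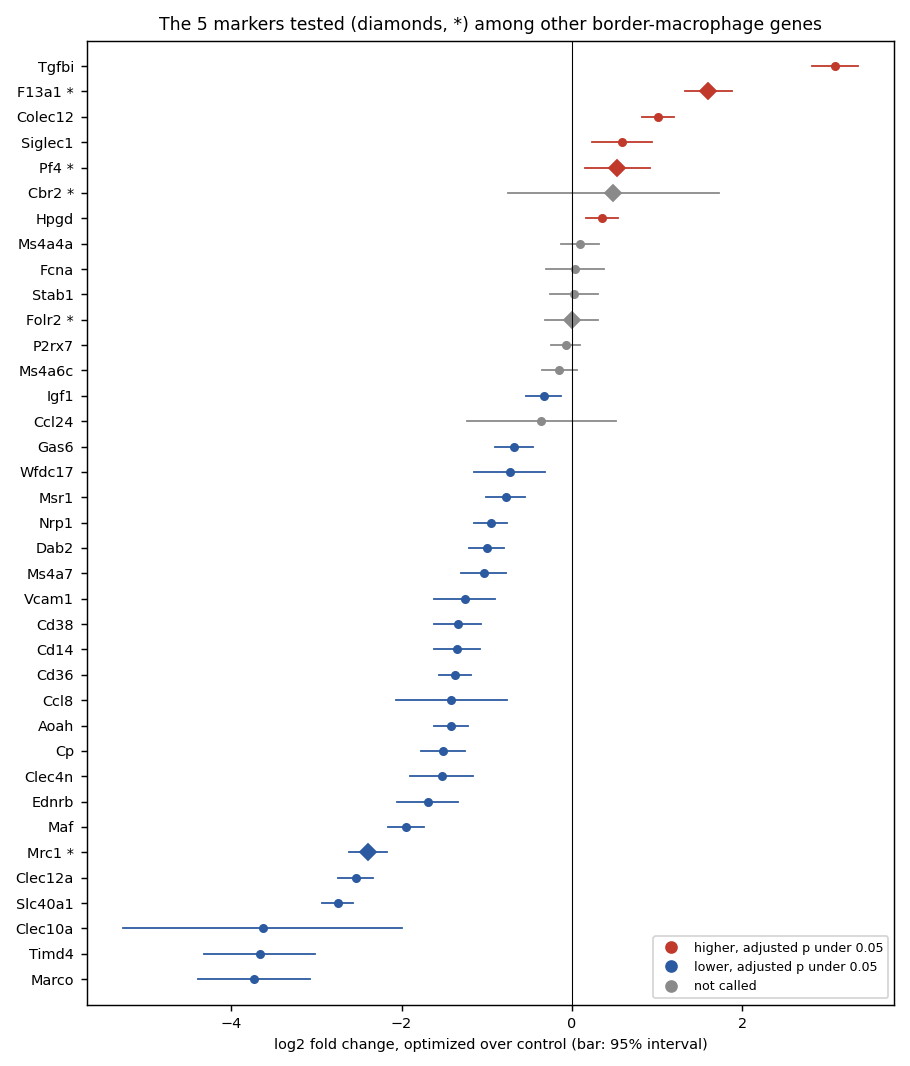
Log2 fold change (optimized against control) with 95% interval for the tested markers and tested genes of the wider border-associated macrophage list that are reported here, sorted by value. Mrc1 lies with the many genes below 0, F13a1 and Pf4 with the few above 0, and Folr2 and Cbr2 have intervals that include 0.

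Over the 6 libraries, the genes with profiles most like that of Mrc1, by Euclidean distance of centred log2 CPM among 9837 genes, were Tnfaip2 (distance 0.184, Pearson r 0.998), Rassf4 (0.193) and Ptafr (0.223). Tnfaip2 went from 428 ± 3.14 to 82.7 ± 3.14 CPM. For Pf4 the nearest were Tmsb4x (distance 0.159), Pold4 (0.163) and Pebp1 (0.171). These likenesses describe the same 6 libraries and 2 conditions in each case, and genes that differ between the conditions by the same amount are near each other by construction.

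Markers of other cell types that a neonatal brain culture could hold were summed in the same way. For comparison, 14.7% of all tested genes were higher and 15.2% lower. Neuron markers summed to 5.64 to 6.57 CPM in control and 8.51 to 9.24 CPM in optimized libraries (2 of 6 tested higher, 33.3%). Astrocyte markers summed to 38.3 to 40.1 and 26.2 to 31.2 CPM (1 of 8 lower, 12.5%). Oligodendrocyte markers summed to 200 to 221 and 208 to 251 CPM (1 of 8 higher and 1 lower, 12.5% each). The astrocyte and oligodendrocyte shares were near those of all tested genes. Dendritic cell markers summed to 10.7 to 11.8 and 7.88 to 9.37 CPM (1 of 2 lower). Monocyte markers summed to 459 to 558 and 2730 to 3817 CPM, with 1 of 4 tested higher, 1 lower and Chil3 at 0 throughout. The gene that rose was Fn1, fibronectin, which made up most of the sum at 471 ± 56.6 and 3332 ± 557 CPM. Neutrophil markers summed to at most 0.408 CPM in control libraries and to 74.3, 3.24 and 1.69 CPM in optimized libraries 1 to 3, where Ltf gave 72.6 CPM of the first value and S100a9, Ly6g, Mpo and Elane were at 0 in every library. The part of these cells in the values of Mrc1, Pf4, F13a1 and Folr2 was not tested. The calls of Mrc1, Pf4, F13a1 and Folr2 were the same without optimized library 1.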

How the data were processed

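Per the labels and the study's methods, HISAT2 was the aligner, mm39 the genome and featureCounts the counter used by the authors. The authors deposited raw counts per gene symbol and, in a further table, FPKM for each of the 6 libraries. Versions, annotation, strand setting and the treatment of reads on more than 1 gene are not given in the sources used here, and the authors' FPKM scaling is not described there either. The study describes the cultures as biological replicates, but the labels do not say that they were separate cultures, and p-values then measure only the spread between these libraries.

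The counts were compared with edgeR 4.0.16 in R 4.3.3 (filterByExpr, TMM factors, glmQLFit and glmQLFTest, Benjamini-Hochberg adjustment over 14618 genes, threshold 0.05). The SE is the log2 fold change divided by the square root of F. Cd163 and Lyve1 did not reach the filter, so their planned test was replaced by counts and their ratio with an exact binomial interval. FPKM was used to compare genes within a group. Alternatives were DESeq2 1.42.0, library size alone or relative log expression for scaling, no filter or at least 10 counts in every library, a replicate block, each library left out, and limma 3.58.1 on log2(FPKM + 1), also restricted to a mean FPKM of 1 or more, and on log2(FPKM + 0.1). A fold change on the log2(FPKM + pseudocount) scale understates the change of low genes. Scripts were first tested on simulated counts.

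The members and gene lists were chosen with earlier results of these data known. Named from each list were the 3 genes with the highest mean CPM, those with the 3 largest and 3 smallest log2 fold changes among the called genes, and direct partners or paralogues of a member. Not every gene under this rule is reported, and the ratios to a further reference gene are not reported here. Lists covered microglia, other border-associated macrophage genes, partners of each member, neurons, astrocytes, oligodendrocytes, fibroblasts, blood and lymphatic endothelium, platelets, monocytes, dendritic cells and neutrophils. Epithelial and smooth muscle lists were added after the values of optimized library 1 had been seen. Between replicates no pair of libraries agreed within sampling noise.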

Additional observations from a re-analysis of the deposited data

How the results depend on the processing

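Over all genes, 4360 were called (2142 higher, 2218 lower) and the median log2 fold change was 0.0079. With library size alone it was -0.12 and the split 1513 higher and 3168 lower. Limma on log2(FPKM + 1) gave 1307 and 2638, on log2(FPKM + 0.1) 1312 and 2664, and, restricted to a mean FPKM of 1 or more, 1176 and 2962, with a median of -0.13. Leaving out 1 library gave 3249 to 5234 calls. Cd163 and Lyve1, with at most 11 counts in a library, were below the count filter.

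The calls of Mrc1 and F13a1 held under every alternative tried. The log2 fold change of Pf4 no longer passed with library size alone (0.39) or in the 3 limma fits (0.37 in each), and it was 0.30 to 0.69 with 1 library left out. Folr2 was at 0.0012 with at least 10 counts in every library and at -0.13 to 0.12 with 1 library left out, and Cbr2 at -0.46 to 0.83, so their signs were not fixed. Between 2 and 3 markers were called in every fit, and 24 to 27 of the wider list.

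Among the other genes named, Stab1 changed sign with library size alone (-0.10), without the filter on low counts (-0.00071) and in the limma fits (-0.12 in each), and so did Cbr1 (-0.12, -0.0028, and -0.13 in each limma fit). With 1 library left out Stab1 was at -0.069 to 0.12, Cbr1 at -0.12 to 0.17, Hmox1 at -0.15 to 0.029 and Cxcr3 at -0.53 to 0.0048. The cause was not tested in any of these cases.

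The labels do not state that libraries of the same number were paired, and so few libraries cannot settle it. Same-numbered libraries deviated together with correlations of 0.277, -0.013 and 0.186. Those with different numbers were at -0.299 to 0.194, the highest being control library 3 with optimized library 2. With the replicate block 4924 genes, 3 markers and 27 genes of the wider list were called, against 4360, 3 and 27 without it.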
